A study of Homo sapiens with 4 samples.

Results

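Integrins and the proteins of focal adhesions, the sites at which a fibroblast holds on to its matrix, were followed in IMR90 cells upon knockdown of HMGB1, a nuclear high-mobility group box protein. The 37 genes comprise 15 integrin chains (11 α and 4 β) and 22 cytoplasmic members, and they were found by symbol on the primary chromosomes among the 63677 genes of the count tables. IMR90 are normal human fetal lung fibroblasts. Cells were transfected either with non-targeting control (NTC) siRNAs or with siRNAs directed against HMGB1 mRNA, and RNA was collected at 72 h. The mRNA-seq data comprise 2 libraries per group. In each group, replicate 1 is isolate I90-10 and replicate 2 is I90-79, so each isolate contributed 1 control and 1 knockdown library. No other allele or treatment is named in the labels, and the knockdown is transient.

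Integrins are receptors made of 1 α and 1 β chain that span the membrane and bind collagens, laminins, fibronectin and other matrix proteins. Ligand specificity lies largely with the pairing, and β1 pairs with most of the α chains listed here. Talins and kindlins bind the cytoplasmic tail of the β chain and activate the receptor, the ILK-PINCH-parvin complex is recruited next to them, the kinases FAK and SRC signal from paxillin and p130Cas scaffolds, and vinculin, α-actinins, filamins, tensins and zyxin family proteins connect the receptor to actin. In lung fibroblasts this machinery carries traction and the assembly of matrix.

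The libraries held between 29861687 and 35317010 counted reads, of which the 37 genes took 1.50% and 1.24% in control and 1.20% and 1.14% in knockdown (isolates I90-10 and I90-79). The targeted gene was checked first. HMGB1 was at 181 and 237 CPM (read counts scaled to library size, with TMM factors) in control and at 16.0 and 18.9 CPM in knockdown, a log2-fold change of −3.59 (SE 0.19, adjusted p = 0.0075, edgeR quasi-likelihood test). All 8 fibroblast markers examined were above 1 CPM in every library, with a summed level of 17967 to 34090 CPM in control and 20459 to 32504 CPM in knockdown. None of 5 epithelial and 5 leukocyte markers reached 1 CPM in all libraries. Their summed levels were 0.516 to 0.715 (epithelial) and 0.102 to 0.163 CPM (leukocyte) in control, and 0.623 to 0.640 and 0.128 to 0.208 CPM in knockdown, with KRT5 and KRT14 at 0 reads. Of 4 endothelial markers on the primary chromosomes, CDH5 was at 0 in every library and TEK alone exceeded 1 CPM in all of them (summed level of the list 149 to 150 CPM in control and 135 to 136 CPM in knockdown). With the isolate as a block, the fibroblast markers LUM (called up) and PDGFRB and THY1 (called down) moved with the knockdown, as did the endothelial marker VWF, from 1.36 and 0.923 CPM in control to 4.16 and 2.59 CPM in knockdown. Their part in the values of the members was not tested. As these are bulk RNA libraries, a smaller share of cells expressing a gene and less RNA per cell cannot be told apart.

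All 37 members passed the low-count filter and were tested together with the other genes, 15398 in all. At the thresholds of the study (adjusted p below 0.01 and absolute log2-fold change above 0.6), 0 members were up- and 0 were downregulated by edgeR's quasi-likelihood test without a term for the isolate. Across all genes, this test called 0.0649% as up- and 0.136% as downregulated. Because every isolate occurs in both groups, a second fit that includes the isolate as a block is given beside it. The blocked fit called 4 members up (ITGA2, ITGB8, PTK2 and LPP) and 3 down (ITGB1, FERMT2 and ZYX), or 10.8% and 8.11% of the members, against 6.68% and 7.84% of all genes. At an adjusted p below 0.05 and any fold change without the block, 3 members were higher (ITGB8, PTK2 and LPP) and 3 lower (ITGB1, FERMT2 and ZYX). These were 8.11% and 8.11% of the members, against 3.94% and 4.50% of all genes. These 6 kept their direction when any library was omitted. Their log2-fold changes then ranged from 2.18 to 2.77 (ITGB8), 1.04 to 1.16 (PTK2) and 0.999 to 1.13 (LPP). For the lower members they ranged from −1.16 to −0.81 (ITGB1), −2.34 to −1.53 (FERMT2) and −1.48 to −0.99 (ZYX). Such fits leave a single library in a group, so their p-values are not used. An unadjusted p below 0.05 was found for 13 members (35.1%), against 28.3% of all genes. DESeq2 called 3 members up and 3 down, against 10.0% of all genes in either direction. RUVs followed by DESeq2 called 4 up and 3 down, or 18.9% of the members, against 10.4% of all genes. With the block, the share of members called down was thus close to that of all genes, and the share called up was higher. At an adjusted p below 0.05 and with RUVs the shares of members were also higher. Each of these shares rests on few members and was not tested against all genes. The members are described below by role rather than as a group that stood apart. Permuting 2 control and 2 knockdown libraries exactly gives a two-sided p of 0.333 at best. Each p printed here was obtained from a joint model of all genes. Without the block it measures the spread between the libraries of a group, the difference between isolates included. With the block it measures the spread that remains once that difference is taken out. This leaves little information per gene beside the variability shared over all genes.

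**Figure D1:**
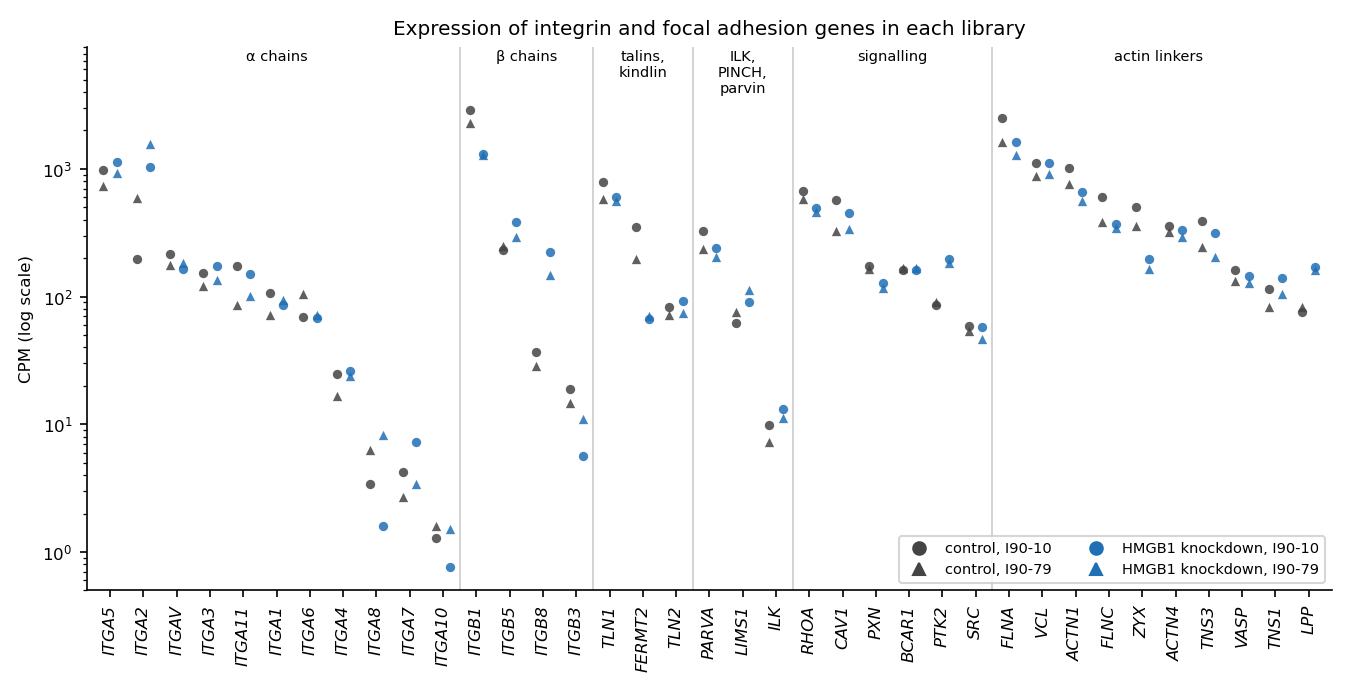
Level of each of the 37 genes in each library, as CPM on a log axis, grouped by role and ordered within each role by the control mean. Circles are isolate I90-10, triangles isolate I90-79, grey control and blue HMGB1 knockdown. ITGB1 is the highest integrin chain. Control and knockdown points do not overlap for 7 members that were higher and 9 that were lower upon knockdown. These are 18.9% and 24.3% of the members, against 29.8% and 30.2% of all genes. ITGB1, ITGB8, ITGA2, FERMT2, ZYX, PTK2 and LPP are among them.

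Members differed widely in level. Levels are given as CPM per kb of exonic length, counted over all annotated exonic bases of a gene. This compares genes only roughly, as the expressed transcripts can be shorter. On this scale ITGB1 (integrin β1) had the highest control mean of all members at 421 ± 70.4 (SD, n = 2). Among integrin chains it was followed by ITGA5 at 113 ± 23.1 and ITGA2 at 49.7 ± 35.2. The highest cytoplasmic members in control were RHOA, a GTPase that drives stress fibre formation, at 242 ± 22.5, the actin crosslinker FLNA at 194 ± 57.5, and the talin-binding protein VCL (vinculin) at 171 ± 29.2. For RHOA, other genes share 13.5% of the 50-base transcript pieces, and 8.29% of the exonic bases overlap a gene on the opposite strand. In knockdown libraries ITGB1 still had the highest mean (211 ± 3.38), and ITGA2 (164 ± 48.0) stood above ITGA5 (136 ± 20.5), although the ranges of these α chains overlapped. ITGA10, ITGA7 and ITGA8 were the lowest members in control, at 0.23, 0.54 and 0.64 CPM per kb.

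The 3′ UTRs of members were searched for the 6-base word GCAGTT, since earlier results of these data had shown lower log2-fold changes for genes that hold it. The word was read on the transcribed strand of the canonical transcript of each gene. Among 12359 tested genes with a 3′ UTR of at least 100 bases, 36.2% held it, and the median log2-fold change was 0.07 with 0 copies, −0.10 with 1 copy, −0.22 with 2 and −0.32 with 3 or more. Of the members, 14 of 37 held the word (37.8%), 7 of 15 integrin chains and 7 of 22 cytoplasmic members. The sites in ITGB1, FERMT2 and LPP, members called with the block, are shown with their surroundings from GRCh37, 5′ to 3′ as in the mRNA, with the word in capitals.
ITGB1, chr10:33190080-33190109, minus strand: atatgtcagtttGCAGTTatgcagaatcca
FERMT2, chr14:53324236-53324265, minus strand: tataattaacgtGCAGTTttaatatctact
LPP, chr3:188593318-188593347, plus strand: aaataaaactgtGCAGTTttgtttggttta
LPP, chr3:188599235-188599264, plus strand: cagtgaaacttgGCAGTTcaccatgagtca

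Of the called members that hold the word, ITGB1 and FERMT2 were lower, and LPP and ITGB8 (1 copy) were higher upon knockdown, whereas ZYX, PTK2 and ITGA2 hold 0 copies. The 14 members with the word had a median log2-fold change of −0.14 (range −1.99 to 2.50) and the 23 without it one of −0.03 (range −1.26 to 1.72). These are descriptions of letters in a sequence. The part of the word in any of the changes was not tested, and the siRNA sequences are not given in the sources used here.

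**Figure D2:**
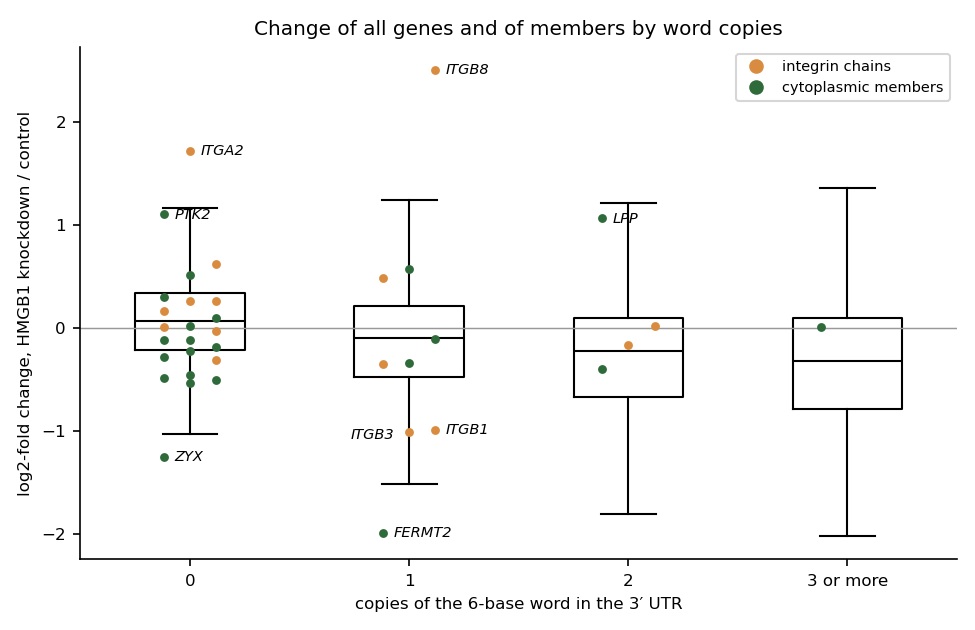
Log2-fold change (HMGB1 knockdown over control) by the number of copies of the 6-base word in the 3′ UTR. Boxes show all 12359 tested genes with a 3′ UTR (median and quartiles, whiskers to the farthest gene within 1.5 interquartile ranges), and points show the 37 members. The medians of all genes step down from 0.07 to −0.32, while members with 1 or 2 copies lie on both sides of 0. Over the same steps the median 3′ UTR length rises from 886 to 5444 bases. With genes split by 3′ UTR length into 3 parts, shortest first, the medians were 0.07, 0.07 and 0.08 with 0 copies. With 1 or more copies they were −0.26, −0.21 and −0.12. The part of length was not tested.

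Among the β chains, ITGB1 was lower and ITGB8 was higher upon knockdown. ITGB1 (ENSG00000150093, chromosome 10 of hg19 from 33189247 to 33294720) was at 2884 and 2274 CPM in control and at 1309 and 1280 CPM in knockdown. The 2 knockdown libraries lay close together and well below both controls. This was a 1.99-fold decrease, with a log2-fold change of −0.99 (SE 0.18, adjusted p = 0.039) and of −0.98 in the blocked fit (adjusted p = 0.000489), both by edgeR's quasi-likelihood test. Other genes share 3.55% of its 50-base transcript pieces, almost all of them the pseudogene ITGB1P1.

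ITGB8 (ENSG00000105855, chromosome 7 from 20370325 to 20455377) encodes the β8 chain, which pairs with αv and binds latent TGF-β. It had 37.1 and 28.5 CPM in control and 223 and 149 CPM in knockdown libraries, so that every knockdown value exceeded every control value. The increase was 5.67-fold, the log2-fold change 2.50 (SE 0.25, adjusted p = 0.013) and, with the block, 2.49 (adjusted p = 1.6e-05, edgeR). It was the largest change among the members in either direction, with 2.59 in I90-10 and 2.38 in I90-79. ITGB5 and ITGB3, further partners of αv, did not pass the test. ITGB5 went from 230 and 251 CPM to 384 and 291 CPM (log2-fold change 0.49, adjusted p = 0.142) and ITGB3 from 18.8 and 14.8 CPM to 5.64 and 11.0 CPM (−1.01, adjusted p = 0.132). For ITGB3, 56.7% of the exonic bases overlap other genes, and 34.8% of its 50-base pieces are shared with others, so its counts are uncertain.

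Of the α chains, ITGA2 alone was called with the block. ITGA2 (ENSG00000164171, chromosome 5 from 52285156 to 52390609) encodes α2, which with β1 forms a receptor for collagens and laminins. Its level was 197 CPM in I90-10 and 590 CPM in I90-79 in control, and 1029 and 1566 CPM in knockdown. The groups did not overlap, but the control of I90-79 was itself well above that of I90-10. Without the block the log2-fold change of 1.72 (SE 0.54) had an adjusted p of 0.114 in edgeR's test and did not pass. With the block it was 1.90 (SE 0.21, adjusted p = 0.000426), with 2.39 in I90-10 and 1.41 in I90-79. Omitting a library moved the value without the block to 1.14 (control replicate 1), 2.72 (control replicate 2), 1.99 (knockdown replicate 1) or 1.39 (knockdown replicate 2).

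The other 10 α chains had log2-fold changes between −0.35 and 0.63 and adjusted p above 0.38. ITGA5, the α chain of the main fibronectin receptor, had 984 and 736 CPM in control and 1140 and 921 CPM in knockdown (log2-fold change 0.26, SE 0.21). ITGAV, the partner of β3, β5 and β8, had a log2-fold change of −0.17, at 214 and 177 CPM in control and 165 and 183 CPM in knockdown. The other collagen-binding chains ITGA1, ITGA10 and ITGA11 were at 0.01, −0.35 and −0.03, and the laminin-binding chains ITGA3, ITGA6 and ITGA7 at 0.17, −0.31 and 0.63. ITGA4 and ITGA8, which bind fibronectin among other ligands, were at 0.26 and 0.02. Of the 4 collagen-binding α chains, which share the partner β1, ITGA2 passed the test with the block and 3 did not, and the difference between them was not tested.

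Summed over genes, the α chains were higher and the β chains lower upon knockdown, and each difference lay mainly with a single gene. The 11 α chains together had 247 and 244 CPM per kb in control and 364 and 394 in knockdown, and the 4 β chains had 513 and 415 in control and 289 and 266 in knockdown. ITGA2 held most of the difference on the α side. Without it the sums were 222 and 169 CPM per kb in control and 234 and 196 in knockdown. These were still higher in knockdown within each isolate, though by less, and the groups overlapped. On the β side, the mean of ITGB1 fell from 421 to 211 CPM per kb and that of ITGB3 from 3.42 to 1.69. The means of ITGB5 (37.3 to 52.4) and ITGB8 (2.16 to 12.3) rose, so the lower β chain sum reflects ITGB1 rather than the β chains as a class. ITGA2 made up 10.1% and 30.6% of the α chain sum in control libraries and 35.7% and 50.2% in knockdown libraries. ITGB1 made up 91.8% and 89.4% of the β chain sum in control and 73.9% and 78.5% in knockdown, and ITGB8 made up 0.477% and 0.453% in control and 5.09% and 3.69% in knockdown. The ratio of the α chain sum to ITGB1 was 0.525 and 0.656 in control and 1.70 and 1.89 in knockdown, and without ITGA2 it was 0.472 and 0.455 against 1.10 and 0.939. These sums describe mRNA, and no protein or surface level was measured here.

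**Figure D3:**
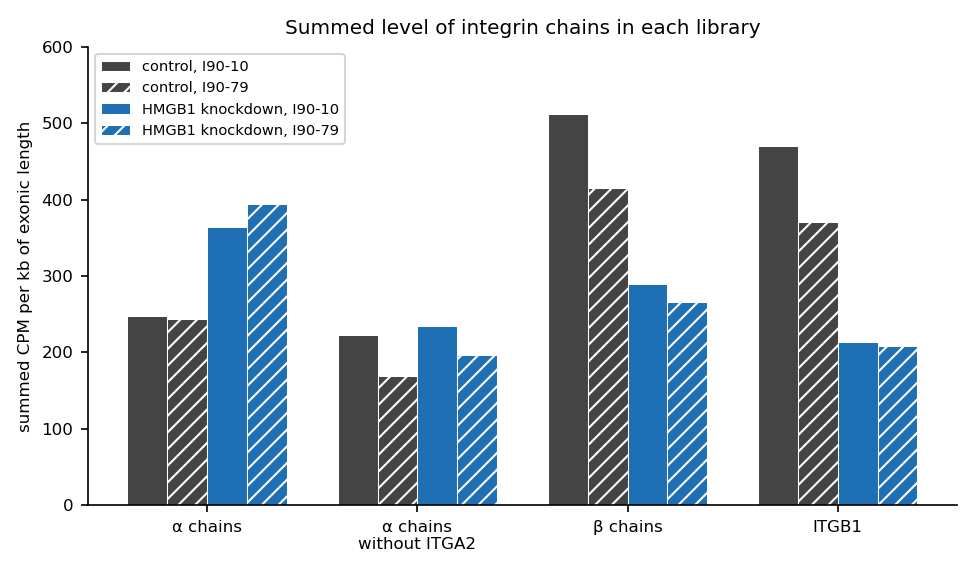
Summed CPM per kb of exonic length in each library for the 11 α chains, the α chains without ITGA2, the 4 β chains, and ITGB1 alone. Grey bars are control and blue bars HMGB1 knockdown, with hatching for isolate I90-79. The β chain sum is lower in both knockdown libraries, as is ITGB1, its largest part. The α chain sum is higher in both, by less without ITGA2.

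Of the proteins that bind β tails, FERMT2 (kindlin-2) was lower. FERMT2 (ENSG00000073712, chromosome 14 from 53323986 to 53419153) was at 349 and 199 CPM in control and at 66.9 and 71.0 CPM in knockdown. The controls differed 1.76-fold between isolates, yet both lay far above the knockdown libraries. The decrease was 3.97-fold, with a log2-fold change of −1.99 (SE 0.28, adjusted p = 0.023) and of −1.93 with the block (adjusted p = 0.000285, edgeR). It was the largest decrease among the members. The talins, which bind the same tails, did not pass the test. TLN1 went from 783 and 580 CPM to 606 and 561 CPM (log2-fold change −0.22) and TLN2 from 82.9 and 71.8 CPM to 91.6 and 74.1 CPM (0.10).

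In the ILK-PINCH-parvin complex, which kindlin-2 engages, no member was called. ILK had 9.80 and 7.30 CPM in control and 13.2 and 11.3 CPM in knockdown (log2-fold change 0.52, adjusted p = 0.193 and, with the block, 0.029). As 79.1% of its exonic bases overlap genes on the opposite strand, TAF10 among them, and the strand setting of the counting is not given in the sources used here, its counts are uncertain. LIMS1 (PINCH-1) had 61.9 and 75.7 CPM in control and 90.8 and 114 CPM in knockdown (0.57, adjusted p = 0.100 and, with the block, 0.0029), a change under the fold threshold, and 21.3% of its 50-base pieces are shared with other genes, mostly LIMS4. PARVA (α-parvin) was at −0.34 on the log2 scale (adjusted p = 0.305 in edgeR's test).

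Among kinases, scaffolds, the GTPase and caveolin, PTK2 was higher. PTK2 (focal adhesion kinase, ENSG00000169398, on chromosome 8) was at 86.5 and 90.7 CPM in control and at 199 and 182 CPM in knockdown. Its replicates were close in both groups, and the groups did not overlap. The increase was 2.15-fold, with a log2-fold change of 1.10 (SE 0.11, adjusted p = 0.013) and of 1.10 with the block (adjusted p = 0.000182, edgeR). Paxillin (PXN), the scaffold that FAK binds, was at 173 and 164 CPM in control and at 129 and 117 CPM in knockdown, a log2-fold change of −0.46 (adjusted p = 0.074 and, with the block, 0.0072) that stayed under the fold threshold. Of its exonic bases, 11.6% overlap an antisense gene. RHOA was at −0.40 (adjusted p = 0.143), SRC at −0.11, CAV1 (caveolin-1) at −0.19 and BCAR1 (p130Cas) at 0.01, none past the threshold.

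Of the 10 actin linkers and regulators, ZYX was lower and LPP higher, although both encode LIM proteins of the zyxin family. ZYX (ENSG00000159840, chromosome 7 from 143078173 to 143088204) had 506 and 359 CPM in control and 198 and 164 CPM in knockdown. This was a 2.39-fold decrease, with a log2-fold change of −1.26 (SE 0.21, adjusted p = 0.032) and of −1.24 with the block (adjusted p = 0.00013, edgeR). LPP (ENSG00000145012, chromosome 3 from 187871072 to 188608460) had 75.7 and 83.1 CPM in control and 171 and 162 CPM in knockdown. For LPP the increase was 2.09-fold, with a log2-fold change of 1.06 (SE 0.12, adjusted p = 0.014) and of 1.07 with the block (adjusted p = 0.000227, edgeR). In neither gene did the groups overlap.

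The 8 other actin linkers had log2-fold changes between −0.54 and 0.30. ACTN1 (α-actinin-1) was at −0.54 (adjusted p = 0.144 and, with the block, 0.0056), FLNA at −0.50, FLNC (filamin C) at −0.48, TNS3 (tensin-3) at −0.28, ACTN4 (α-actinin-4) at −0.12 and VASP, which promotes actin filament elongation, at −0.12. Of the exonic bases of ACTN4, 14.2% overlap a gene on the opposite strand. VCL, at 1114 and 874 CPM in control and 1110 and 907 CPM in knockdown, had a log2-fold change of 0.02 (SE 0.19), and TNS1 (tensin-1) one of 0.30. Of all 10, 7 had a lower and 3 a higher fitted value, with a median of −0.20.

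**Figure D4:**
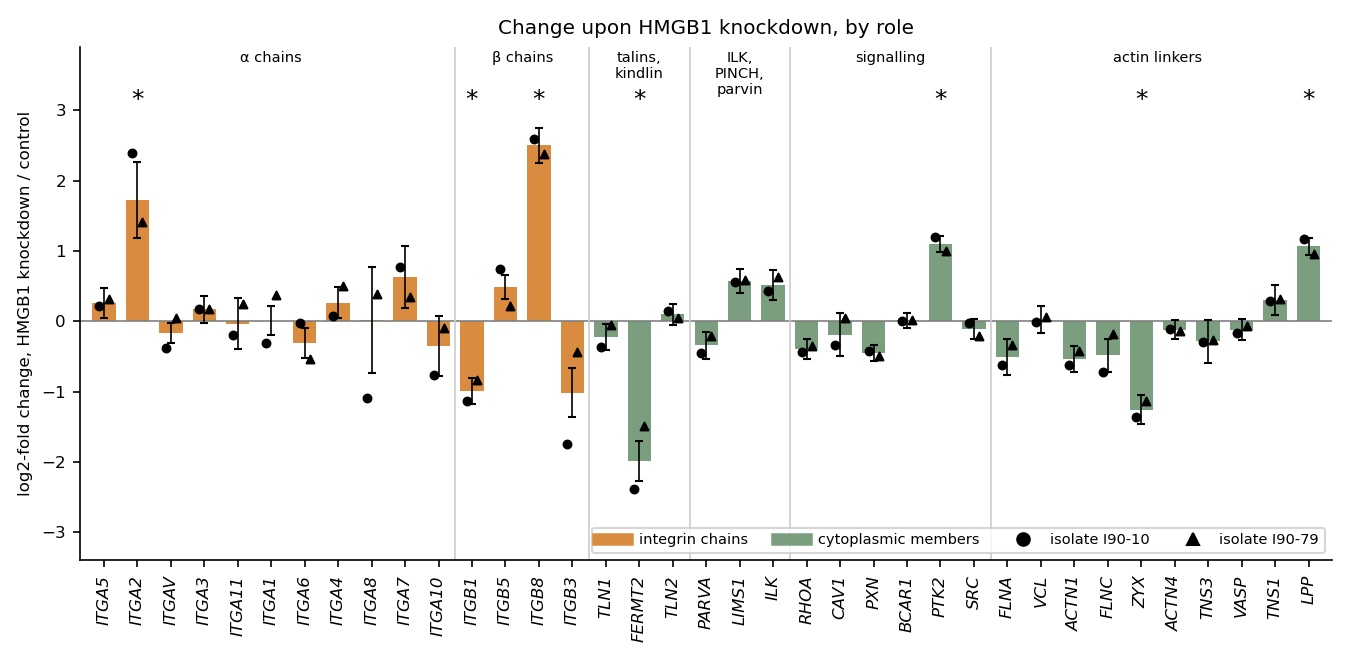
Log2-fold change of each member upon HMGB1 knockdown without the block (bars, with 1 SE) and in each isolate (circles I90-10, triangles I90-79), grouped by role. Asterisks mark the 7 members called in the blocked fit. That fit favours genes whose isolates move the same way, so their agreement here is not separate evidence.

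Integrin chains were then compared with cytoplasmic members. The 15 integrin chains had a median log2-fold change of 0.02, with 9 higher and 6 lower, and the 22 cytoplasmic members one of −0.15, with 8 higher and 14 lower. The integrin median is the value of ITGA8 (SE 0.75), a low member whose own value turned to −0.21 with the block. The difference between the class medians with the block was 0.17. The median of all 15398 genes was −0.01. The difference of 0.17 between the classes was 0.21 in I90-10 and 0.35 in I90-79, and it ranged from 0.25 to 0.36 with 1 library omitted at a time. The medians themselves depended on single libraries. That of the integrin chains was 0.36 without control replicate 1 and 0.22 without knockdown replicate 2, and that of the cytoplasmic members −0.34 without control replicate 2 and −0.27 without knockdown replicate 1. With RUVs followed by DESeq2 they were 0.36 and −0.01. Within each class some members were higher and others lower, with ranges of −1.01 to 2.50 and −1.99 to 1.10, both far wider than the difference between the classes. With the block, 2 integrin chains were called up (13.3%) and 1 down (6.67%), and 2 cytoplasmic members up (9.09%) and 2 down (9.09%). Of all genes, 6.68% were called up and 7.84% down, and each class share rests on 1 or 2 members. The summed level of the integrin chains was 760 and 659 CPM per kb in control and 654 and 660 in knockdown, and that of the cytoplasmic members 1508 and 1128 in control and 1117 and 956 in knockdown. Genes are not replicates, so no test was made of the classes.

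**Figure D5:**
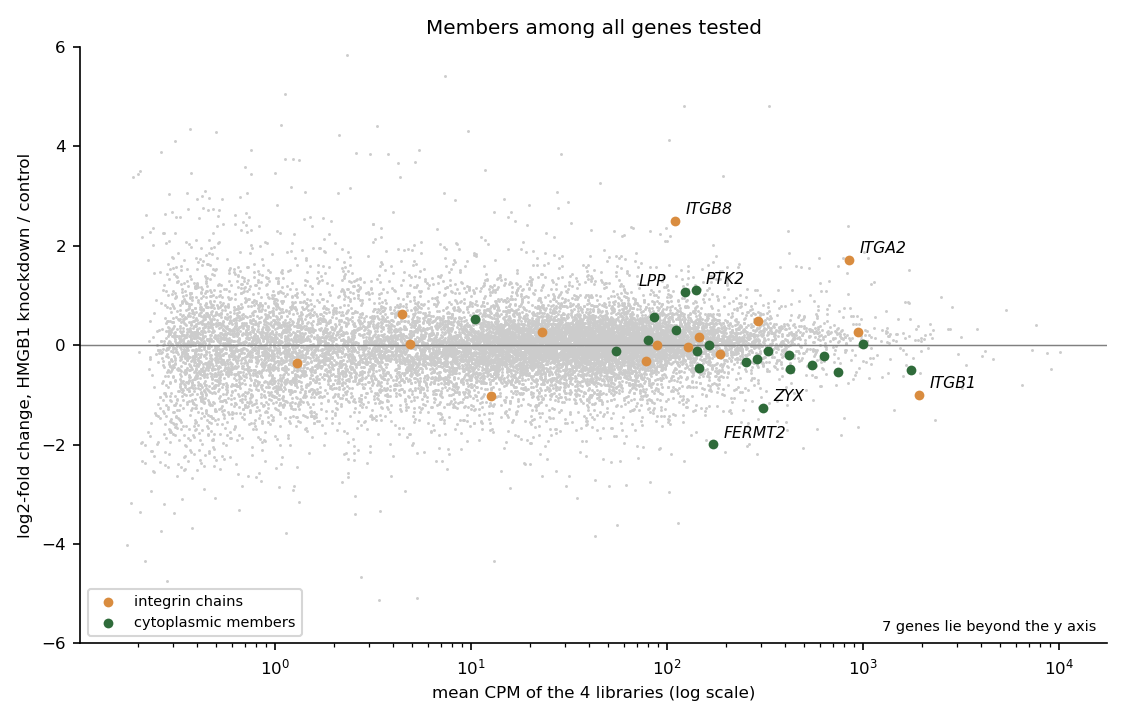
Log2-fold change upon HMGB1 knockdown against mean CPM of the 4 libraries (log axis) for all 15398 genes tested (grey), integrin chains (orange) and cytoplasmic members (green). Named are the 7 members called in the blocked fit. Members lie on both sides of 0, from −1.99 (FERMT2) to 2.50 (ITGB8), and 7 genes lie beyond the plotted range.

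Groups that did not overlap in CPM were found for 7 members that were higher and 9 that were lower (18.9% and 24.3%), against 29.8% and 30.2% of all genes. Levels also differed between the isolates. In both groups 24 members were higher in I90-10 than in I90-79 and 6 were lower (64.9% and 16.2%), against 33.2% and 33.5% of all genes. Of the 22 cytoplasmic members, 17 were higher in I90-10 in both groups, as were 7 of the 15 integrin chains. FERMT2 and CAV1 differed 1.76-fold and 1.74-fold between the isolates in control. In 6 members (16.2%, against 21.7% of all genes) the isolates moved in opposite directions. None of these was called, and the blocked fit by its form favours genes whose isolates agree.

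Further genes of the pathway were taken from lists of other integrin chains, other cytoplasmic adhesion genes and integrin ligands. Of 11 other integrin chains, chiefly those of leukocytes and epithelia, 3 passed the low-count filter (ITGAE, ITGB4 and ITGB7), with an adjusted p of at least 0.31 in either fit. Of 48 other cytoplasmic adhesion genes, 46 were tested, and with the block 1 was up- and 13 were downregulated (2.17% and 28.3%, against the 6.68% and 7.84% of all genes given above). Without the block, 1 was higher and 6 were lower at an adjusted p below 0.05. The median log2-fold change of the list was −0.28, with 12 higher and 34 lower. The lowest adjusted p among the decreases belonged to NEDD9, a p130Cas relative, CAVIN1, which builds caveolae with caveolins, and PDLIM7, an actin-associated LIM protein. With the block their log2-fold changes were −2.41 (adjusted p = 3.7e-05), −1.68 (adjusted p = 5.2e-05) and −1.23 (adjusted p = 0.000128) in edgeR's test. CAV2 (caveolin-2) was the 1 that was called up (1.07, adjusted p = 0.000304). The word GCAGTT was present in 6 of these 13 lower genes and in 19 of all 46.

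Of 20 ligand genes, 19 were tested, with a median log2-fold change of 0.01, and with the block 3 were up- and 4 were downregulated (15.8% and 21.1%, against 6.68% and 7.84% of all genes). LAMC1, the laminin γ1 chain, was at 697 and 617 CPM in control and at 1596 and 1480 CPM in knockdown (log2-fold change with the block 1.23, adjusted p = 0.000105 in edgeR's test). COL4A1, a basement membrane collagen chain, was at 0.86 and SPP1 (osteopontin) at 2.50, the latter from 0.408 and 0.407 CPM to 2.84 and 1.92 CPM. CYR61, VCAM1 and THBS1, ligands that engage αv or β1 integrins, were at −2.17, −1.32 and −1.01 with the block. Without it their adjusted p were 0.020, 0.080 and 0.332, and for THBS1 the groups overlapped. FN1 (fibronectin), the ligand of α5β1 and picked after its value was seen, was the fourth, at −0.74 (adjusted p = 0.0028), from 11173 and 5212 CPM in control to 5772 and 3601 CPM in knockdown. Its groups overlapped, and the fit without the block gave an adjusted p of 0.283.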

How the data were processed

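The authors selected poly(A) RNA, prepared TruSeq libraries, mapped paired-end reads to hg19 (GRCh37) with STAR and counted unique reads per gene with featureCounts. They deposited raw read counts per library for 63677 genes, with no normalization. The tool versions and the strand setting are not given in the sources used here. The 5904 genes outside the primary chromosomes held 0 reads.

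Counts were tested with edgeR 4.0.16 (limma 3.58.1, R 4.3.3) on all 4 libraries, with filterByExpr (15398 genes), TMM scaling, the quasi-likelihood test and Benjamini-Hochberg adjustment over all genes tested. Calls required, as in the study, an adjusted p under 0.01 together with a log2-fold change beyond 0.6 in either direction. CPM used TMM-scaled library sizes, and CPM per kb divided this by the length of all exonic bases. The script was tested on simulated data. The labels place each isolate in both groups, so replicate numbers pair the libraries. The differences between isolates in the 2 groups had a correlation of 0.56 across genes. Where the block changes a call, its value is given. Members and gene lists were chosen with earlier results of these data known. Named are members with an adjusted p below 0.05 or called with the block in full, the highest 3 of each class by CPM per kb, all others by their log2-fold change, and at most 3 genes per list and direction. Alternatives were the replicate block, DESeq2 (1.42.0), RUVs with 1 factor then DESeq2, size factors of DESeq2 in edgeR (RLE), no low-count filter, an adjusted p below 0.05, and leaving out each library. RUVs was rewritten from its description, with all genes as controls. Exon positions, exonic lengths and overlaps came from the gene models given with the authors' read counts. Shared 50-base pieces, 3′ UTRs and the sites of the word came from the GENCODE annotation lifted to GRCh37. The authors' own test results were not used. Among the members called with the block, 1 site of the searched word is not reported here.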

Additional observations from a re-analysis of the deposited data

Results flagged for a closer look

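In 6 members the 2 isolates moved in opposite directions upon knockdown. As each isolate had 1 library per group, this difference was not tested. None of these members was called, and the blocked fit by its form favours genes whose isolates agree. The log2-fold change in I90-79 exceeded that in I90-10 by 1.48 for ITGA8 (−1.10 and 0.39 in I90-10 and I90-79, at 1.59 to 8.20 CPM), by 0.69 for ITGA1 (−0.31 and 0.38), by 0.44 for ITGA11 (−0.20 and 0.25), by 0.42 for ITGAV (−0.37 and 0.05), by 0.38 for CAV1 (−0.34 and 0.04) and by 0.0596 for VCL (−0.0048 and 0.05). Groups of 2 libraries were too small for a search for outliers.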

How the results depend on the processing

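The number of called members depended on the model. It was 0 up and 0 down in the test without the block and with RLE factors, 4 and 3 with the replicate block, 4 and 4, with ITGB3 added, without the low-count filter (27391 genes tested), 3 and 3 with DESeq2, 4 and 3 with RUVs, and 3 and 3 at an adjusted p below 0.05. The number of all genes called moved as well. It was 10 up and 21 down without the block, 9 and 20 with RLE factors, and 1028 and 1207 with the block. Without the low-count filter it was 1118 and 1275, with DESeq2 728 and 818, and with RUVs 765 and 830. At an adjusted p below 0.05 it was 606 and 693. Leaving out a library left a single library in a group, which was assumed to vary like the other group. For these fits only log2-fold changes are given. The block changed no call other than those of the 7 members named. RUVs with 1 factor moved the class medians to 0.36 (integrin chains), −0.0102 (cytoplasmic members) and 0.37 (difference), and leaving out a library moved them between 0.0063 and 0.36, −0.34 and −0.0018, and 0.25 and 0.36. The cause was not tested. The median of all genes moved by less than 0.1 in every alternative run. In 22 of the 37 members, the 7 called with the block among them, the direction held in all alternatives. In 15 it turned in at least 1. The block gave −0.21 for ITGA8 and 0.0246 for ITGA11. RUVs gave −1.05 for ITGA8, 0.45 for ITGA11, −0.0134 for BCAR1, 0.0671 for TNS3, 0.0132 for VASP and 0.18 for CAV1. Leaving out a library gave ranges of −0.25 to 0.32 (ITGA1), −0.0235 to 0.36 (ITGA3), −0.58 to 0.0174 (ITGA6), −0.0149 to 1.07 (ITGA7), −1.61 to 0.76 (ITGA8), −0.93 to 0.0530 (ITGA10), −0.45 to 0.55 (ITGA11), −0.42 to 0.0091 (TLN1), −0.0606 to 0.24 (TLN2), −0.14 to 0.21 (VCL), −0.0197 to 0.0432 (BCAR1), −0.64 to 0.0944 (TNS3), −0.25 to 0.0306 (VASP), −0.27 to 0.0321 (SRC) and −0.53 to 0.27 (CAV1). The adjusted p of the 7 called members over the alternatives with all libraries reached at most 0.115 for ITGA2 and 0.039 for the others. With 2 libraries per group, the standard errors limit which changes could be detected.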
